A study of Mus musculus with 36 samples.

Results

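Ribosome footprints were measured in mouse embryonic fibroblasts (MEFs, cells grown out of embryos and kept in culture, strain C57BL/6J) that had spent 2 h in medium brought to 700 mOsm with sorbitol and had then recovered for 15 min. Their 2 footprint libraries were set against the 2 footprint libraries of cells in normal medium, so the comparison used 4 of the 36 samples of the series and 4 of its 18 footprint libraries; all 4 were chosen by the condition named in their titles. The cells of both groups were the same MEFs and carried no genetic change or other agent according to the labels, which do not say whether the cells were primary or immortalised, and which give the length of the recovery and not how the stress was ended. Ribosome-bound RNA was taken from the 80S peak down to the bottom of a sucrose gradient, so each library pooled monosomes and polysomes from several plates, and fragments of 28 to 30 nt were sequenced.

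Hyperosmotic medium draws water out of a cell, concentrates the cytoplasm and slows protein synthesis within minutes. Cells then take up small organic solutes, change which genes are transcribed and resume translation, and return to normal medium reverses the shrinkage. A ribosome protects a short stretch of the mRNA that it is reading from nuclease, so a count of such footprints per coding sequence reports how much of the ribosomes' work goes to that mRNA. Footprint values are shares of a library: they show how ribosomes were divided among mRNAs and not how many ribosomes were at work, and more mRNA and more ribosomes per mRNA raise them alike.

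The values were RPKM, footprint reads per length of coding sequence and per size of the library, for transcripts identified by Ensembl transcript number alone. The name and sequence tables used here matched 0 of these identifiers, so transcripts are described by length and by level, with the identifier for 2 in each direction, and neither gene lists nor fibroblast markers were applied. Recovered read totals were 7261234 and 7593983 in the unstressed libraries and 2500212 and 2372665 in the recovery libraries, so the recovery side limited the precision. The 2 libraries of a condition differed by little more than the sampling of reads (chi-square per degree of freedom 1.047 for the unstressed pair and 1.044 for the recovery pair), were averaged and counted as 1 sample. No p-value or SD over samples is therefore given for footprints; counts use a fold threshold, and intervals for single transcripts cover counting error only.

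After 15 min of recovery most transcripts stood close to their unstressed share of footprints, and more of the remaining ones were low than high. Of 8849 transcripts with a mean scaled RPKM of at least 2 over the 18 footprint libraries, 158 (1.79%) exceeded the unstressed value by 2-fold or more and 488 (5.51%) fell short of it by 2-fold or more. The differences of log2(scaled RPKM + 1) had a median of -0.11 and an SD of 0.57 over transcripts, and 92.7% of transcripts lay within 2-fold. The 2 recovery libraries gave medians of -0.10 and -0.11 when each was set against the unstressed mean. With scaling factors from the 4 libraries alone the counts were 217 higher and 405 lower, which moved the higher share of the calls from 24.5% to 34.9%. Low transcripts still outnumbered high ones under that scaling.

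**Figure D1:**
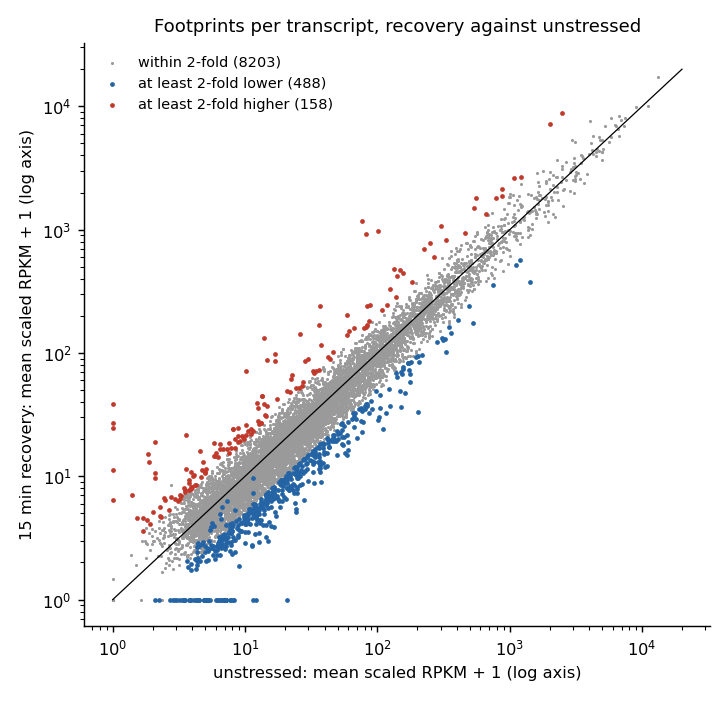
Each point is 1 of 8849 transcripts, with the mean scaled RPKM + 1 of the 2 unstressed libraries on the x axis and of the 2 recovery libraries on the y axis, both on log axes; the line marks equal values. The 158 transcripts at least 2-fold higher (red) and the 488 at least 2-fold lower (blue) flank a narrow band, and the blue points along the bottom are transcripts unlisted in both recovery libraries.

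Stricter rules left fewer calls in both directions. Between the 2 unstressed libraries 17 transcripts differed by 2-fold or more, and between the 2 recovery libraries 148 did. In all 4 pairs of a recovery and an unstressed library, 94 transcripts were high by this fold (1.06%) and 280 low (3.16%). For 3925 well-read transcripts, with at least 100 reads expected in the shallowest of the 4 libraries, 61 were higher (1.55%) and 151 lower (3.85%). A part of the low group rests on absence from a list: 109 of the 488 were unlisted, and set to 0, in at least 1 recovery library, and 47 of them in both. With the 8680 transcripts listed in all 4 libraries the counts were 151 higher and 379 lower. Absence from a list does not always mean few reads, since in 9 cases among the recovery pair a transcript was unlisted although the other library implied at least 20 reads for it.

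The low transcripts were longer outside their coding sequence than the high ones, and the high ones had shorter coding sequences. The coding length and the transcript length were recovered from the deposited values, and their difference, the non-coding length, covers both untranslated regions together. The 158 higher transcripts had a median coding length of 310.5 codons and a median non-coding length of 548 nt, against 441 codons and 1126 nt for all transcripts past the filter. The 488 lower transcripts had medians of 466.5 codons and 1869.5 nt. Transcripts of at most 200 codons made up 36.7% of the higher group, 15.8% of the lower group and 14.4% of all. Among well-read transcripts the lower group was longer in coding sequence too. Its median was 744 codons, against 211 in the higher group and 446 in all. Of the well-read transcripts, those of at most 200 codons made up 45.9% of the higher group, 5.96% of the lower group and 17.5% of all. Transcripts with over 2000 nt outside the coding sequence made up 47.1% of the lower group, 14.0% of the higher group and 27.5% of all.

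The median change descended with coding length in every step of the 6 classes examined. It was 0.25 on the log2 scale for 180 transcripts of up to 100 codons, 0.02 for 1096 of over 100 and up to 200, and -0.09 for 2647 of over 200 and up to 400. It was -0.13 for 3166 transcripts of over 400 and up to 800 codons, -0.22 for 1387 of over 800 and up to 1600, and -0.28 for 373 longer ones. Medians of the 4 library pairs varied with an SD of at most 0.013 in these classes. The low share ran from 4.49% to 6.78% in the classes up to 1600 codons and reached 11.3% in the longest. The high share fell from 7.78% in the shortest class to 0.216% at over 800 and up to 1600 codons, and was 4.02% in the longest. Among well-read transcripts the medians ran from 0.31 to -0.25. Their low share rose in every step from the shortest to the longest class: 0.0%, 1.53%, 2.71%, 3.28%, 7.34% and 10.6%. Their high share fell from 6.19% in the shortest class to 0.0% at over 800 and up to 1600 codons, and was 5.77% in the longest.

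Non-coding length separated the transcripts as well. The median change was 0.04 for 490 transcripts with up to 200 nt and 0.04 for 1493 with over 200 and up to 500 nt. It was -0.03 in the next class, up to 1000 nt, and -0.15 in the one up to 2000 nt. For 1871 transcripts with over 2000 and up to 4000 nt it was -0.27, and for 562 with over 4000 nt it was -0.40. The low share was 4.90% below 200 nt, 2.61% in the next class and 13% above 4000 nt. The classes near 0 changed sign with the scaling: the class of over 500 and up to 1000 nt had a median of 0.01 with the values as deposited and 0.06 with factors from the 4 libraries.

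**Figure D2:**
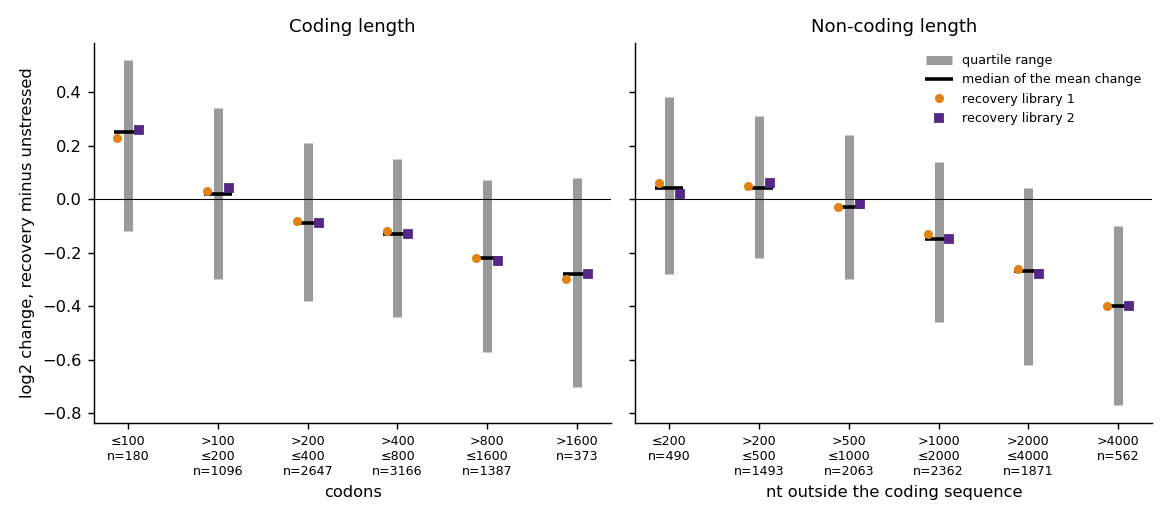
Median log2 change (black bars) and quartile range over transcripts (grey) by coding length in codons (left) and by nt outside the coding sequence (right), with the median for each recovery library against the unstressed mean as a circle or square. Medians descend from 0.25 to -0.28 with coding length and from 0.04 to -0.40 with non-coding length, and the 2 recovery libraries nearly coincide in every class.

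The 2 lengths were then crossed. Within each of 4 coding length classes the median descended from the class of up to 500 nt outside the coding sequence to the class of over 2000 nt. For up to 200 codons it went from 0.11 to -0.04, and for over 200 and up to 400 codons from 0.04 to -0.27. For over 400 and up to 800 codons it went from 0.04 to -0.30, and for over 800 codons from -0.03 to -0.45. The 563 transcripts with over 800 codons and over 2000 nt held the largest low share of all combinations, 79 transcripts or 14.0%. Among their 231 well-read members 39 were low, or 16.9%. Coding length, in turn, gave the order -0.04, -0.27, -0.30 and -0.45 among transcripts of over 2000 nt outside the coding sequence. With up to 500 nt the medians in the same order of coding classes were 0.11, 0.04, 0.04 and -0.03, and among well-read transcripts they were 0.12, 0.03, 0.04 and 0.07, where the longest class did not come last.

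Shares of reads, which need no log scale, were compared by length class. Transcripts of up to 100 codons took 3.01% of reads in both unstressed libraries, 7.69% and 7.71% at the end of the 2 h stress, and 3.85% and 3.88% after 15 min of recovery. Transcripts of over 800 and up to 1600 codons took 14.0% and 13.9% in unstressed cells, 6.73% and 6.72% at the end of the stress, and 12.6% and 12.7% after 15 min. After 15 min both classes were much nearer to the unstressed value than to the stress value. Transcripts of over 1600 codons, the class with the lowest median change, took 4.01% in both unstressed libraries, 2.36% and 2.35% at the end of the stress, and 3.98% and 4.01% after 15 min, so no gap was left in their share. Those with over 4000 nt outside the coding sequence moved from 3.90% and 3.93% to 1.91% and 1.94%, and then to 3.30% and 3.29%. Apart from the class of over 1600 codons, the gap that remained in these shares after 15 min was larger than the difference between the 2 libraries of a condition.

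The course over the stress and the 2 recovery times puts the 15 min values in place; all changes here are against the same 2 unstressed libraries, which the comparisons share. For well-read transcripts with over 4000 nt outside the coding sequence the median change was -1.43 at the end of the 2 h stress, -0.36 after 15 min of recovery and -0.21 after 2 h. For those with up to 200 nt it was 0.46, 0.04 and 0.00. By coding length, transcripts of up to 100 codons went through 1.61, 0.31 and 0.07, and those of over 1600 codons through -0.85, -0.25 and -0.18. After a short stress of 15 min at 700 mOsm and 15 min of recovery, the same 2 coding classes stood at 0.04 and -0.05. The stress libraries were shallow, with 734083 and 909760 reads, and 1254 transcripts differed by 2-fold or more between the pair.

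Transcripts called after 15 min stood in the same direction, by their medians, at the end of the stress. The 151 well-read low transcripts had a median change of -1.99 at the end of the 2 h stress, -1.24 after 15 min, where they were chosen, and -1.0 after 2 h of recovery. The 61 well-read high transcripts stood at 1.86, 1.32 and 0.88. Cells stressed for 15 min showed smaller values for both groups at the same recovery time, -0.41 and 0.69, and after 2 h of recovery they stood at -0.00 and 0.19. At 500 mOsm for 2 h the low group stood at -1.44 and the high group at 0.29, and at 600 mOsm for 2 h they stood at -2.91 and 0.68. All 3925 well-read transcripts had medians of -0.56 at the end of the 2 h stress at 700 mOsm, -0.04 at 500 mOsm and -0.25 at 600 mOsm.

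**Figure D3:**
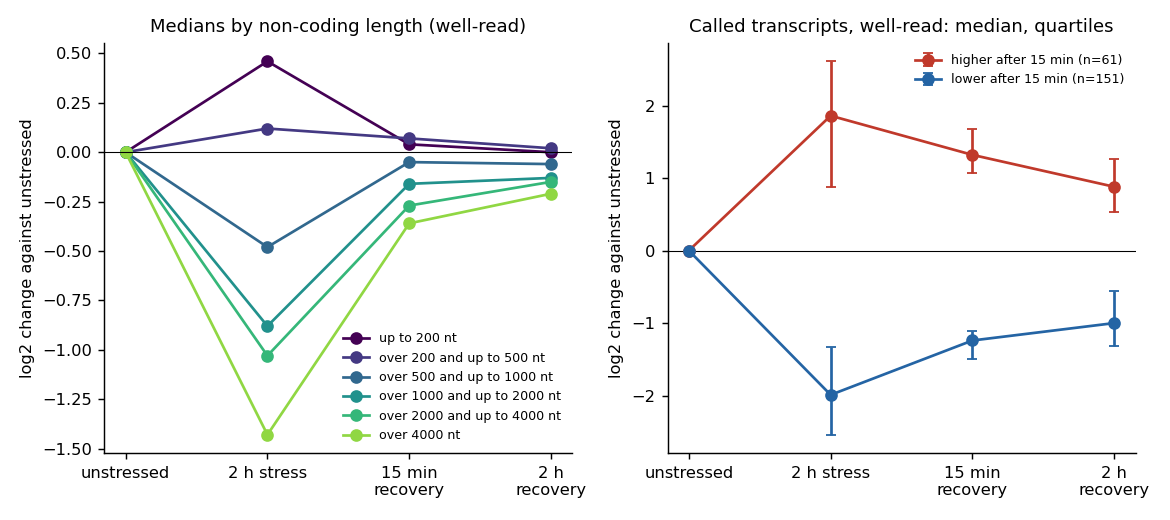
Left, median log2 change against unstressed cells of well-read transcripts in 6 classes of non-coding length, at the end of the 2 h stress and after 15 min and 2 h of recovery. Right, medians with quartiles for the 61 high and 151 low well-read transcripts, which were chosen on the 15 min point; the spread of the length classes is widest at the end of the stress, and the called groups are nearer to 0 at each later point.

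Set directly against 3 other conditions with which it shares no library, the 15 min recovery after the long stress differed most from the stress it followed. Relative to the end of the 2 h stress, 3746 transcripts were high by 2-fold or more (42.3%) and 1212 low (13.7%). The shallow stress libraries weigh on these counts, and of 3925 well-read transcripts 1329 were high and 656 low. Relative to 2 h of recovery after the same stress, 258 were high (2.92%) and 418 low (4.72%). Relative to 15 min of recovery after the 15 min stress, 116 were high (1.31%) and 333 low (3.76%). In 390 transcripts (4.41%) both values lay above all 16 other footprint libraries and in 241 (2.72%) below all of them, but only 1 did so by 2-fold, upwards, and 0 downwards. Such counts were not particular to this condition: over the 9 conditions they ran from 169 to 1189 above and from 106 to 1510 below.

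Among transcripts with at least 100 reads over the 4 libraries, 82 were high and 239 low by 2-fold in all 4 pairs, and the 15 largest changes in each direction were examined one by one. The 15 high ones ranged from 2.45 to 5.27 on the log2 scale and had 80 to 2603 codons; 6 of them had at most 200 codons. The 15 low ones ranged from 2.05 to 2.78 in size and had 137 to 2799 codons; 2 of them had at most 200 codons and 4 had over 800. At the end of the 2 h stress 13 of the 15 high ones were already at least 2-fold above unstressed cells and 12 of the 15 low ones at least 2-fold below. Both counts rest in part on unlisted values set to 0. Low ones such as those with 388, 355 and 578 codons were unlisted in both stress libraries, which listed nothing under 5 reads. High ones such as those with 194 and 425 codons were listed in the first or the second stress library alone. After 2 h of recovery 11 of the 15 were still at least 2-fold apart in each group. Over all 8849 transcripts past the filter the median change was -0.91 at the end of the stress, with quartiles of -2.18 and 0.42. Low values were thus common at that point, not only among the 15. After 2 h of recovery the median over all was -0.13, with quartiles of -0.49 and 0.17. Several isoforms of a gene can share reads, so a single transcript's value may belong in part to another isoform.

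Of the 15 high transcripts, 3 were listed in neither unstressed library. ENSMUST00000052854, a transcript of 194 codons, had a scaled RPKM of 38.3 and 37.1 in the recovery libraries, from 119 reads in all. It was at 307 in the first and unlisted in the second library of the 2 h stress, and unlisted in both libraries after 2 h of recovery. ENSMUST00000184858, with 723 codons, had 24.5 and 27.1 after 15 min of recovery, from 303 reads, after 88.7 and 83.3 at the end of the stress and before 3.21 and 3.29 at 2 h of recovery. The other one, with 418 codons, stood at 24.4 and 22.7, with 162 in 1 stress library and no listing in the other. RNA of these 3 transcripts was nearly undetected in unstressed cells (FPKM of at most 0.0319 per library). It stayed so at the end of the stress (at most 0.0859) and after 2 h of recovery (at most 0.142). Their footprints thus had almost no RNA beside them at any of these times. No fold is given because absence from a list is not a measured 0.

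Of the transcripts listed in all 4 libraries, 3 short ones are given first. By reads alone, 2 longer ones with 20 and 29 unstressed reads had ratios of 16.2 (10.0 to 27.6, 381 codons) and 17.0 (11.4 to 26.1, 723 codons), so the order depends on the pseudocount. The one with 131 codons had a scaled RPKM of 73.1 and 77.5 in unstressed cells, 809 and 725 at the end of the stress, 1210 and 1160 after 15 min of recovery and 168 and 187 after 2 h. Its reads gave a 15.7-fold difference (95% counting interval 14.2 to 17.4). The transcript with 137 codons and 64 nt outside the coding sequence went from 81.7 and 81.2 through 2030 and 2050 to 900 and 950, 11.3-fold above unstressed (10.3 to 12.5). The transcript with 104 codons went from 97.4 and 103 through 1230 and 1320 to 986 and 974, 9.79-fold above (8.85 to 10.8). By limma over 18 RNA libraries, RNA of the 137-codon transcript was 0.62 ± 0.062 (SE) higher on the log2 scale after the 2 h stress (adjusted p = 7.78e-07). RNA of the 131-codon and 104-codon transcripts differed by 0.31 ± 0.315 and -0.01 ± 0.193, with limma adjusted p of 0.431 and 0.974. After 2 h of recovery RNA of the 104-codon transcript was 0.73 ± 0.164 higher by limma (adjusted p = 0.00478), and that of the 131-codon and 137-codon transcripts differed by 0.28 ± 0.269 and 0.03 ± 0.053 (limma adjusted p = 0.5 and 0.708).

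2 other high transcripts had large RNA changes. The transcript with 2603 codons went from 16.3 and 15.3 in unstressed cells to 99.2 and 95.2 after 15 min of recovery, 6.16-fold (5.84 to 6.51), and stood at 59.8 and 57.7 in between, at the end of the stress. Its RNA was 2.84 ± 0.068 (SE) higher after the 2 h stress by limma (adjusted p = 1.34e-13) and 1.48 ± 0.058 higher after 2 h of recovery (adjusted p = 1.56e-11). The transcript with 381 codons was an exception among the high ones in being listed in neither stress library. It went from 1.23 and 0.966 in unstressed cells to 16 and 19.6 after 15 min and to 218 and 215 after 2 h of recovery. Its RNA was 5.70 ± 0.197 higher by limma after 2 h of recovery (adjusted p = 3.15e-12) and differed by -0.53 ± 0.231 at the end of the stress (limma adjusted p = 0.0687).

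RNA of the high transcripts with 352 and 372 codons did not pass the test at either time. The transcript with 352 codons had 25.5 and 24.4 in unstressed cells and 143 and 138 after 15 min, 5.64-fold higher (5.00 to 6.36), against 70.0 and 65.5 at the end of the stress. Its RNA differed by 0.17 ± 0.085 after the stress (limma adjusted p = 0.107), and that of the 372-codon transcript by 0.36 ± 0.24 (limma adjusted p = 0.233). After 2 h of recovery the values were 0.09 ± 0.072 and -0.19 ± 0.205 (limma adjusted p = 0.392 and 0.564). The transcript with 372 codons went from 13.8 and 13.3 to 86.4 and 85.9, 6.35-fold higher (5.44 to 7.42), and from 38.5 and 48.1 in the stress libraries. Both of these were higher after 15 min of recovery than during the stress and than after 2 h of recovery, when they stood at 80.6 and 73.7 and at 33.6 and 28.9.

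On the low side the transcript with 476 codons had the most reads. It had a scaled RPKM of 203 and 197 in unstressed cells, 119 and 127 at the end of the stress, 33.7 and 30.8 after 15 min of recovery and 37.6 and 42.3 after 2 h. Its 4567 unstressed and 250 recovery reads gave a 6.20-fold lower value (5.45 to 7.07). It was also low after the short stress, at 87.7 and 86.0 after 15 min of recovery and 73.2 and 73.9 after 2 h. Its RNA differed by 0.05 ± 0.135 (SE) after the 2 h stress and by 0.28 ± 0.115 after 2 h of recovery, with limma adjusted p of 0.782 and 0.101. Both recovery values lay below both stress values.

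Several long transcripts were low in footprints while their RNA had fallen. The transcript with 2799 codons went from 23.9 and 22.5 to 3.77 and 4.42, 5.67-fold lower (4.89 to 6.62), and its RNA changed by -0.79 ± 0.078 after the stress (limma adjusted p = 7.37e-07). The transcript with 1712 codons went from 26.9 and 27.1 to 6.02 and 4.8, 4.98-fold lower (4.22 to 5.91). The one with 1250 codons and 3560 nt outside the coding sequence went from 15.8 and 15.4 to 2.88 and 2.83, 5.46-fold lower (4.18 to 7.24). RNA of both fell by 1.47 on the log2 scale after the stress, with SEs of 0.101 and 0.109 and limma adjusted p of 2.83e-08 and 5.53e-08. After 2 h of recovery their RNA changed by -0.33 and -0.31 (limma adjusted p = 0.0119 and 0.0254), and their footprints stood at 11 and 10.2 and at 3.83 and 4.29.

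2 low transcripts were listed in neither recovery library. ENSMUST00000035908, with 388 codons, had 5.81 and 5.91 in unstressed cells from 109 reads and 3.35 and 3.50 after 2 h of recovery. The other one, with 863 codons, had 4.24 and 3.93 in unstressed cells and 43.1 and 39.8 at the end of the stress. ENSMUST00000109352, with 157 codons, had 10.8 and 16.9 in unstressed cells and was unlisted in the first recovery library and at 4.02 in the second, from 5 reads. With the unlisted library counted as 0 reads, its value was 7.12-fold lower, with a wide counting interval of 2.96 to 22.4. That interval does not cover reads that the missing listing may hide.

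**Figure D4:**
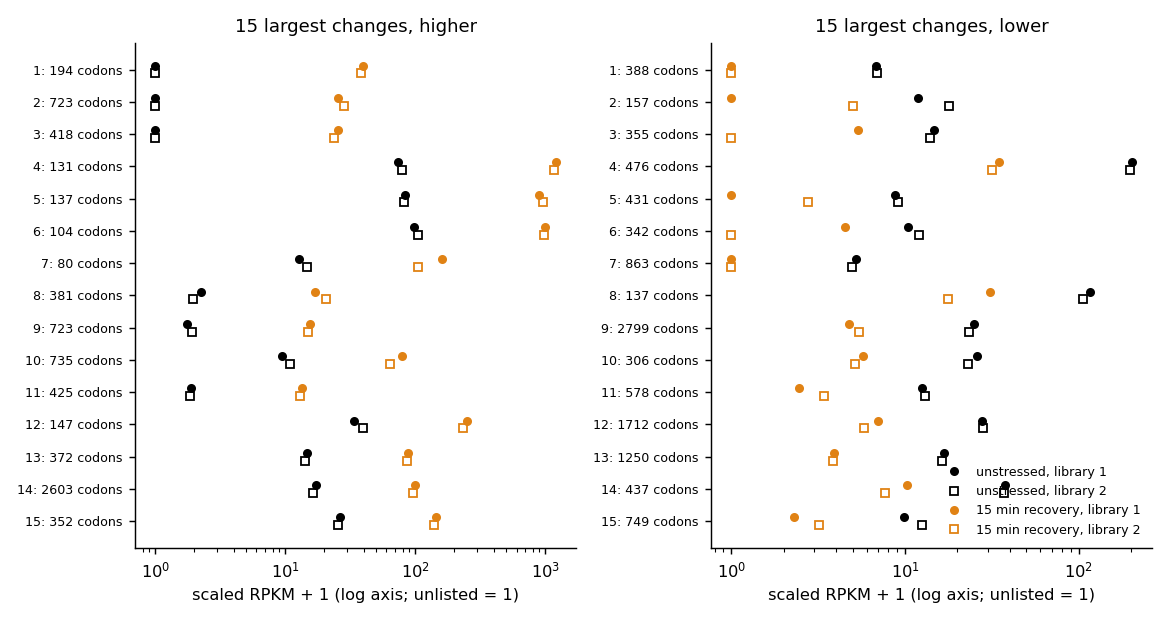
Scaled RPKM + 1 (log axis) in the 2 unstressed libraries (black) and the 2 recovery libraries (orange) for the 15 transcripts with the largest rise (left) and the largest fall (right), labelled by rank and coding length; a value of 1 means unlisted. The unstressed and recovery points of each transcript do not overlap, which the choice of transcripts fixes, and the rises span wider distances than the falls.

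RNA from the same conditions was set beside the footprints. The RNA libraries labelled as 15 min of recovery after the 2 h stress were not used here because their file names and labels disagree, so RNA at the end of the 2 h stress and after 2 h of recovery brackets the footprint time point. By limma (adjusted p under 0.05), RNA of 313 of the 429 low transcripts that could be tested fell after the 2 h stress, or 73.0%, and RNA of 11 rose. Over all 9275 transcripts tested, 31.0% fell and 18.7% rose. The median RNA change of the low group was -0.77 on the log2 scale, against -0.05 over all. Unlike the footprint pairs, the RNA pairs differed by far more than the sampling of reads. Chi-square per degree of freedom was 47.083 for unstressed RNA, 22.973 for the 2 h stress and 4.595 for 2 h of recovery. The 2 stress RNA libraries also differed in depth, with 23257380 and 6851958 reads.

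For the high group, RNA of 50 of 133 transcripts rose after the stress (37.6%) and RNA of 9 fell, with a median of 0.32. After 2 h of recovery the median RNA change of the low group was -0.07, with 87 of 429 down (20.3%) and 51 up, where 8.28% of all transcripts fell and 13.9% rose. The high group then had 46 of 133 up (34.6%), 4 down and a median of 0.22. The counts after 2 h of recovery depend on the first unstressed RNA library: without it RNA of 17 low transcripts fell (3.96%) and 90 fell over all (0.97%), while the low group's median stayed at -0.07.

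Grouping transcripts by the change of their RNA gave an ordered series of footprint medians. For 596 transcripts whose RNA was at least 2-fold lower at the end of the stress, footprints after 15 min of recovery had a median change of -0.72, and 143 (24.0%) were low. For 1370 with RNA lower by 0.5 to 1 on the log2 scale it was -0.41, with 9.93% low. For 5717 with RNA within 0.5 it was -0.04, with 2.40% low and 1.52% high. For 745 with RNA higher by 0.5 to 1 it was 0.19, with 4.30% high, and for 18 with RNA at least 2-fold higher it was 0.27, with 5 of them high. RNA was within 0.5 of the unstressed level for 137 of the 429 low and 87 of the 133 high transcripts. Most of all transcripts grouped here were in that class, so these counts alone set neither group apart. Its high share of 1.52% was near the 1.79% over all transcripts past the footprint filter. Its low share of 2.40% was below the 5.51% over all. Whether the RNA had already returned by 15 min of recovery was not tested.

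**Figure D5:**
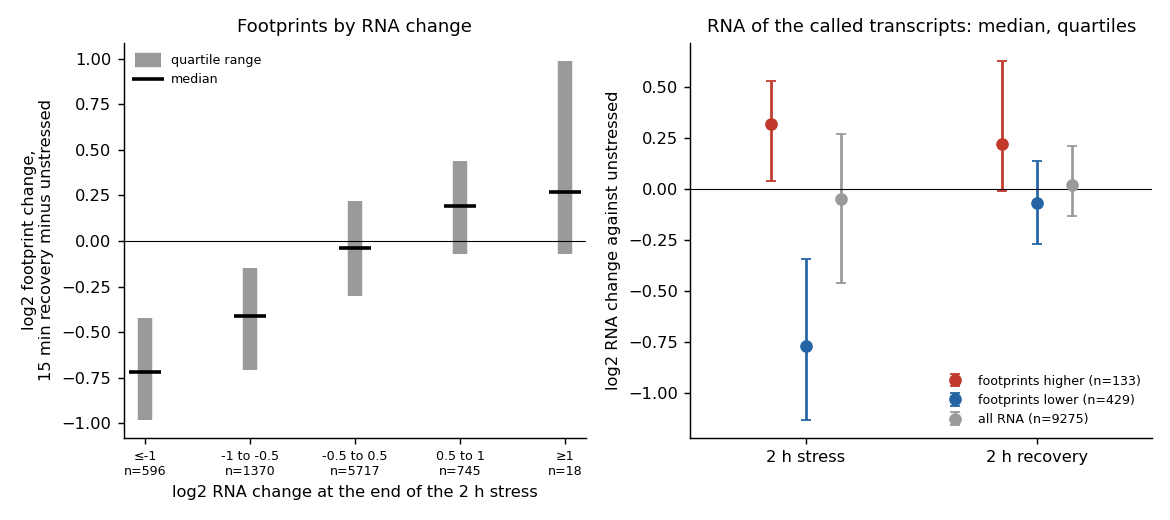
Left, footprint change after 15 min of recovery (median and quartile range over transcripts) by class of RNA change at the end of the 2 h stress, in log2 units; medians rise from -0.72 to 0.27. Right, median and quartiles of the RNA change of the transcripts with high (red) or low (blue) footprints and of all transcripts (grey); the blue median is -0.77 after the stress and -0.07 after 2 h of recovery.

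RNA and non-coding length moved together, so RNA was also read within length classes. Of 2283 transcripts with over 2000 nt outside the coding sequence, 59.2% fell in RNA after the stress (limma), and of the 214 with low footprints among them 88.3% did. With over 500 and up to 2000 nt the shares were 26.2% and 63.4%, and with up to 500 nt they were 10.7% and 39.2%. Conversely, among well-read transcripts with RNA within 0.5 of the unstressed level, the footprint medians of the 3 length classes were 0.03, -0.07 and -0.13 from short to long. With RNA lower by 0.5 or more they were -0.34, -0.45 and -0.59.

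The starting ratio of footprints to RNA was also compared. Footprint levels for it came from 2 h of recovery after the short stress, libraries outside the comparison, and RNA levels from unstressed cells. Of 5 equal classes of this ratio the lowest held 9.04% low and 3.11% high transcripts after 15 min, and the other classes held 4.24% to 5.03% low ones. The median change was -0.21 in the lowest class and -0.07 to -0.12 in the others.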

How the data were processed

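MEFs from 9 conditions were profiled with 2 footprint and 2 RNA libraries each. The authors' deposited RPKM (footprints) and FPKM (RNA) are listed per transcript; per the submitters' processing notes, the tools were cutadapt, Bowtie and STAR and the build GRCm38, with no roles given. Unlisted transcripts were set to 0. Totals, lengths and reads were recovered from the steps between the values; 100% of listed values came out whole (relative tolerance 1e-09). RPKM and FPKM were scaled by median ratios over the 18 libraries of each assay (4619 footprint and 5705 RNA transcripts with values above 0 throughout and a mean of at least 10), a pseudocount of 1 was added, and transcripts averaging 2 or more after scaling were kept (8849 and 9275). A call is a 2-fold difference of mean log2 values. Replicate libraries of a condition are not stated to come from separate cultures. Counting intervals are exact conditional binomial (95%) on reads without molecular identifiers. For RNA, limma 3.58.1 (R 4.3.3) was fitted once to all 18 libraries with group weights and a mean-variance trend, with Benjamini-Hochberg adjustment at 0.05; with n = 2, p-values measure only the spread between these libraries. Python 3.11.15, pandas 2.3.3 and scipy 1.17.1 did the rest, and the scripts were tested on simulated data.

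Transcripts described singly were among the 15 largest rises and 15 largest falls with at least 100 reads over the 4 libraries and 2-fold in all 4 pairs; those described were picked from these after their values were seen. The condition, classes and lists were chosen with earlier results of these data known. Gene lists and sequences were not used, since 0 identifiers matched the name tables. Alternatives covered scaling, pseudocount, filter, left-out libraries, limma and voom.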

Additional observations from a re-analysis of the deposited data

How the results depend on the processing

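Low footprint calls outnumbered high ones under all alternatives run. High and low counts were 77 and 180 with a pseudocount of 5, 61 and 151 for well-read transcripts, and 94 and 280 in all 4 pairs of libraries. Chosen after seeing the data, a filter of 100 reads expected at the unstressed level gave 39 and 206. That filter looks at the unstressed side alone, so it drops transcripts read well only in recovery and favours low calls. Without a filter the high and low counts were 177 and 731. Leaving out 1 library in turn gave 165 to 188 high and 489 to 543 low. Treating the libraries as n = 2, limma (adjusted p under 0.05) called 1079 and 1633 over the 18 footprint libraries and 1522 and 2712 on the 4, and voom on the recovered reads called 1559 and 2638. With the replicate number as a block limma called 1049 and 1592; replicate deviations of the compared groups correlated at 0.02 over 3925 transcripts, and the labels do not state that numbers pair libraries. The RNA counts changed little under the block, with 312 low transcripts down after the stress.

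The gap in median change between the shortest and longest coding class was 0.52, and 0.55 and 0.41 with pseudocounts of 0.25 and 5, 0.22 without a filter, 0.56 for well-read transcripts, 0.55 for those listed in all 4 libraries, 0.57 with reads set at the unstressed level, and 0.51 to 0.54 with a library left out. The non-coding gap was 0.44, and 0.33 with a pseudocount of 5, 0.36 without a filter, 0.40 for well-read transcripts and 0.42 to 0.46 with a library left out. The median at up to 200 nt turned to -0.01 without a filter and to -0.03 with reads set at the unstressed level; at 500 to 1000 nt it turned to 0.01 and 0.06 under the other scalings. Leaving out RNA libraries gave 291 to 307 low transcripts down after the stress and 37 to 46 high ones up; after 2 h of recovery it gave 17 to 82 and 31 to 46. Causes were not tested. None of the 30 single transcripts reversed under the settings that kept it. Their choice, by size and by 2-fold changes in all 4 pairs, largely fixed this in advance. Gene lists were not run. Depth on the recovery side limits calls for transcripts of few reads.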
